A study of Homo sapiens with 4 samples.

Results

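Cells answer broken DNA and stalled replication forks with a chain of pathways, and 42 genes of that chain were read in ES-2 cells after depletion of MAML2 and of a MAML2 fusion. They cover the checkpoint kinases, the processing of DNA ends, the BRCA proteins, the partners of the strand exchange recombinase, the Fanconi anemia proteins, the helicases and nucleases that take joined DNA apart, the poly(ADP-ribose) polymerases and a pair of mismatch repair genes. The genes were listed by name as a topic, with earlier results of these data known, and no measured value enters the rule. All 42 were among the 19626 genes of the deposited tables and passed the limit on low values, so that all 42 belonged to the 12157 genes tested.

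ES-2 is an established human ovarian cancer line, labelled as a clear cell carcinoma, whose cells carry an endogenous fusion of YAP1 with MAML2 (YM). YAP1 is the Hippo pathway coactivator that works through TEAD factors, and MAML2 is a coactivator of Notch signalling. The 4 libraries formed 2 groups. Cells of the shCtl group (n = 2 biological replicates) received a nontargeting hairpin, and cells of the shMAML2 group (n = 2) received the hairpin shM2-3, whose target is shared by MAML2 and the fusion. Both hairpins were delivered by pLKO.1 lentivirus in DMEM with fetal bovine serum. The labels give infections of 8 h on consecutive days and RNA taken 96 h after the first, where the methods give shorter times for both. Each group rests on 1 hairpin in 1 cell line, so that effects of losing the fusion, of losing MAML2 and of the hairpin itself cannot be told apart.

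The libraries held between 20051083 and 23978660 estimated counts. MAML2 had 1436 and 1402 estimated counts in shCtl and 634 and 553 in shMAML2, and its level, as reads per kilobase scaled to library size (RPKM), was 8.61 and 8.26 in shCtl and 3.11 and 3.0 in shMAML2. MAML2 thus fell by 1.40 on the log2 scale (standard error, SE, 0.0688, edgeR adjusted p = 5.18e-10), and its counts include reads of the fusion. Of 6 markers of the labelled tumor type, the keratins KRT7, KRT8 and KRT18 were present and lower in shMAML2, while NAPSA, which marks clear cell carcinoma, PAX8 and EPCAM were near 0, at an RPKM of 0.369 or less in every library. The summed RPKM of the 6 was 637 in both shCtl libraries and 313 to 316 in shMAML2. Fibroblast genes (0 of 5 tested) summed to 0.428 to 0.436 in shCtl and 0.294 to 0.519 in shMAML2, with LUM at 0 in a library of each group. Of 4 leukocyte genes only CD68 was tested, PTPRC and CD3E stood at 0.0256 or less, CD14 stood at 0.0777 and 0.102 in shCtl and 0.89 and 0.866 in shMAML2, and the list summed to 57.0 to 57.4 and to 38.8 to 39.9. Of 4 endothelial genes, CDH5 was lower and PECAM1 higher, the latter at 0.0376 and 0.0308 in shCtl and 1.31 and 0.923 in shMAML2, VWF stood at 0.0855 or less, and the list summed to 9.40 to 10.6 and to 5.09 to 5.65.

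Homologous recombination copies lost sequence from a sister chromatid. The MRE11-RAD50-NBN complex senses the break, nucleases cut back its ends, BRCA2 with PALB2 and BRCA1 with BARD1 load the recombinase onto the exposed strand, and helicases and nucleases resolve the joined molecules afterwards. The Fanconi anemia core complex attaches ubiquitin to FANCD2 and FANCI at crosslinked DNA, while ATM and ATR start the checkpoint that halts the cell cycle through CHEK2 and CHEK1. These pathways matter in ovarian cancer, where tumors with lost BRCA function are treated with PARP inhibitors. Many of the genes are transcribed mainly in cycling cells.

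In shMAML2 cells, EME1, a subunit of a junction nuclease, and CHEK2, the checkpoint kinase below ATM, were the only 2 of the 42 genes to fall 2-fold or more in edgeR's fit. That is 4.76%, against 8.93% of all genes tested. TP53BP1, which guards broken ends against resection, rose 1.76-fold. In RPKM, which is scaled differently from the counts in edgeR's fit, BRCA2 and FANCE kept 49.9% and 50% of the control level, and PARP1 and PARP2 kept 56% and 55.3%. In the fit, on which the 2-fold count rests, BRCA2 and FANCE both had a log2 fold change of -0.93, short of 2-fold. For 22 of the 42 genes, ATR, NBN and MSH6 among them, no difference passed the test. Over all genes, 3313 of the 12157 tested did not pass. In whole-culture RNA, fewer cells of a kind and less RNA in each cell cannot be told apart.

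A gene is said to have fallen or risen here when its Benjamini-Hochberg adjusted p in edgeR's quasi-likelihood test, taken over all genes tested, was 0.05 or less. By that measure 17 of the 42 genes (40.5%) fell, against 36.4% of all genes tested, and 3 (7.14%) rose, against 36.3%. The share that fell is close to that of all genes. The share that rose is below it, and the 3 genes are TP53BP1, FANCL and ATM. A further 22 did not pass, and over all genes 3313 of the 12157 tested did not. The 95% interval of the log2 fold changes of the 22 reached at most 0.36 to either side of the value. With the added limit of a 2-fold change, 2 genes fell (4.76%, against 8.93% of all genes tested) and 0 rose (against 9.24%). No gene rose 2-fold at an unadjusted p under 0.05 either, nor with DESeq2 or limma. At a limit of 1.5-fold, 11 fell and 1 rose, where 18.9% of all genes fell and 18.9% rose. The log2 fold change was below 0 in 30 genes and above 0 in 12, with a median of -0.13 against -0.0037 over all genes tested. In library-scaled counts, 23 genes were lower in both shMAML2 libraries than in both shCtl libraries (54.8%, against 43.0% of all genes tested) and 11 were higher in both (26.2%, against 42.6%). The members were chosen by topic and are not replicates, so these shares are given without a test of their difference from other genes.

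**Figure D1:**
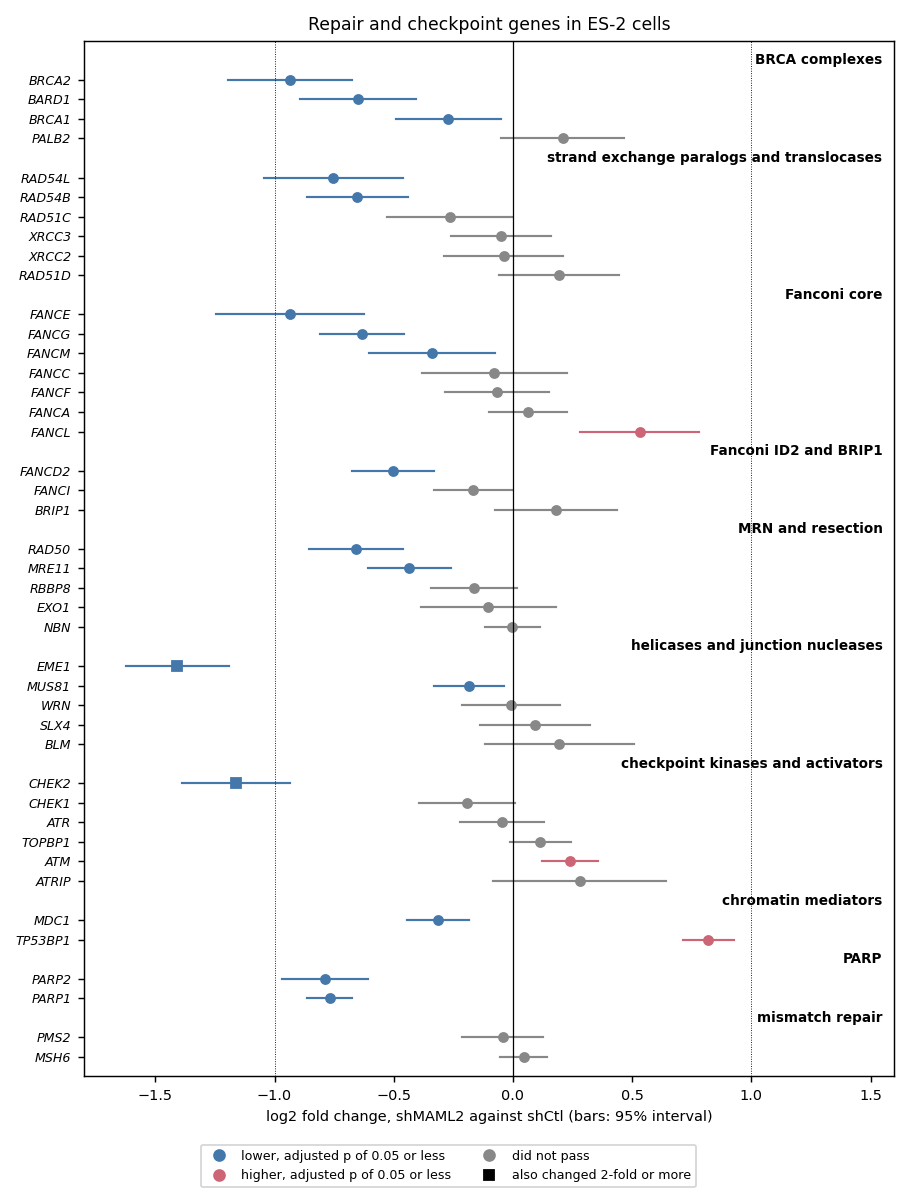
Log2 fold change of each of the 42 genes in shMAML2 against shCtl (x axis, n = 2 libraries per group), grouped by role, with bars for the 95% interval of edgeR's fit and dotted lines at a 2-fold change. EME1 (-1.41) and CHEK2 (-1.16) lie beyond the line on the left, no gene lies beyond the line on the right, and TP53BP1 (0.82) is the highest.

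The estimated counts of the 42 genes ran from 155 for FANCE to 5903 for TP53BP1, together 0.151% to 0.173% of a library, and the standard errors of the log2 fold changes ran from 0.0434 for PARP1 to 0.168 for ATRIP. Levels were compared between genes per length, as RPKM. The median over the 42 genes was 5.12 in shCtl, where 27 genes lay below the median of all genes tested (7.24), and 4.16 in shMAML2. PARP1 was the most abundant in both groups, followed by MSH6. The lowest in shCtl was RAD51D at 1.13 ± 0.0182 (SD, n = 2), then ATRIP at 1.34 ± 0.046 and BRCA2 at 1.44 ± 0.0456. In shMAML2 the lowest was BRCA2. Of 41 pairs of neighbours in the order of levels, 22 overlapped between libraries in shCtl and 23 in shMAML2, so that many neighbours did not differ beyond their spread. TP53BP1 went from rank 9 to rank 3, EME1 from 10 to 22 and CHEK2 from 6 to 15.

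**Figure D2:**
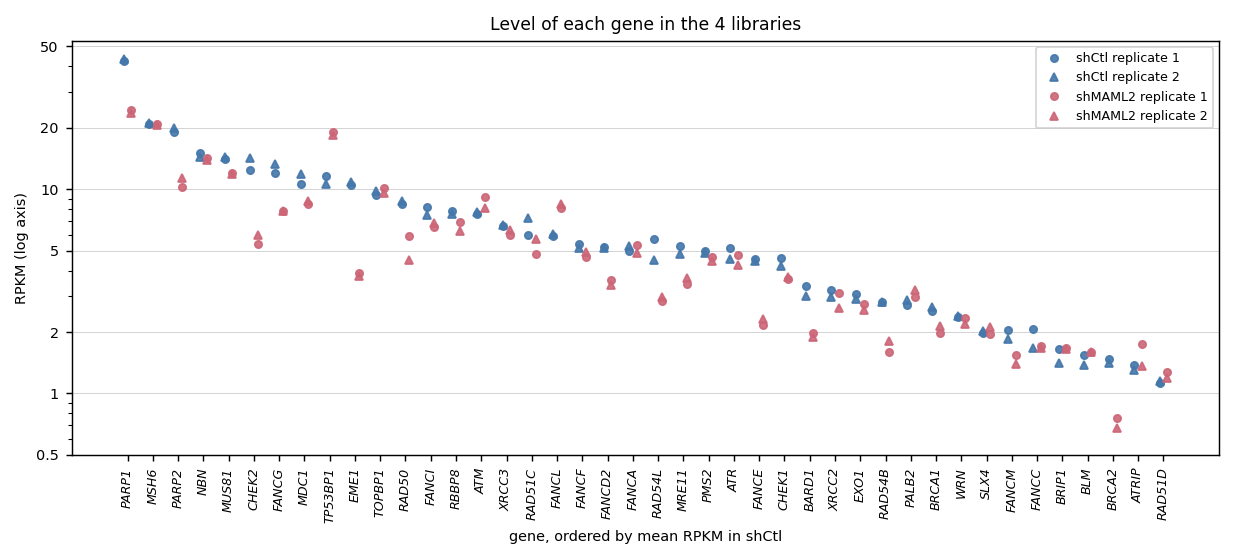
RPKM of each gene (y axis, log scale) in the 2 shCtl and 2 shMAML2 libraries, with genes ordered by their mean in shCtl from PARP1 (42.9) to RAD51D (1.13). The shMAML2 points of EME1, CHEK2, FANCE and BRCA2 lie well under their shCtl points, those of TP53BP1 above them, and most other genes show points close together.

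Promoter sequence was searched for the binding letters of factors known to act on repair and cell cycle genes, and of TEAD, the partner of YAP1 on DNA. RefSeq windows of GRCh38.p14, from 250 bases before to 50 bases after each start, held 38 of the 42 genes (53 windows, since some genes have several starts). FANCI, NBN, RAD54B and WRN were not in the table. The letters searched, on both strands, were an E2F site (TTT, then GG, CC, GC or CG, then CGC), the cell cycle element TTTGAA, the CCAAT box that NF-Y binds, the E-box CACGTG that MYC and MAX bind, and CATTCC, which TEAD factors bind. Some can overlap at their ends, as CCAAT and CATTCC can on the same strand. The windows below are upstream of the start, 5′ to 3′ on the strand of the gene, with the match or its reverse complement in capitals. FANCA, FANCC and PMS2 did not pass the test and show E2F letters, CHEK2 and RAD54L fell and TP53BP1 rose with a CCAAT box in each, BRCA2 shows the E-box, and FANCM shows TEAD letters beside a CCAAT box.
FANCA E2F letters, chr16:89816802-89816829, minus strand: ctacaccgcgGCGGCAAAgccaaacgca
FANCC E2F letters, chr9:95317738-95317765, minus strand: tcgtcggaatTTTCCCGCgacgccgcgg
PMS2 E2F letters, chr7:6009132-6009159, minus strand: gggaagtattTTTGCCGCcccgcccgga
CHEK2 CCAAT box, chr22:28741846-28741870, minus strand: gggggttttgATTGGctgagggtgg
RAD54L CCAAT box, chr1:46247676-46247700, plus strand: tcgaacgcagCCAATgggtgatacg
TP53BP1 CCAAT box, chr15:43510701-43510725, minus strand: tgggggacccATTGGtggggcgagg
BRCA2 E-box, chr13:32315450-32315475, plus strand: gtcacggcgtCACGTGgccagcgcgg
FANCM TEAD letters, chr14:45135851-45135876, plus strand: gccagccaatCATTCCcaacggaaac

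E2F letters stood in a window of 8 of the 38 genes (21.1%), against 3.99% of the 27305 genes of the whole table and 6.91% of its 9571 tested genes. Counted by window, the shares were 16.98% and 3.31%. The 8 genes are EXO1, FANCA, FANCC, FANCD2, MSH6, PMS2, TOPBP1 and XRCC2, of which only FANCD2 fell and none rose. A CCAAT box stood in 19 genes (50%, against 39.7% of all genes and 43.8% of tested genes), of which 7 fell and 2 rose. Of all genes tested, 36.4% fell and 36.3% rose, so that the number that fell with the box is near the share of all genes. The median log2 fold change was -0.05 in genes with the box and -0.27 in the 19 without it. CATTCC stood in 7 (18.4%, against 16.7% and 15.05%), of which only FANCM fell. TTTGAA stood in 4 (10.5%, against 18.2% and 13.6%), where MDC1 fell and ATM rose, and CACGTG in 3 (7.89%, against 8.77% and 12.6%), where BRCA2 and RAD50 fell. EME1, the gene that fell most, has no match to any of them in its window. A match describes letters and not a bound site.

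Among the 6 checkpoint kinases and activators, 1 fell (16.7%, against 36.4% of all genes tested), 1 rose (16.7%, against 36.3%) and 4 did not pass. CHEK2 (chromosome 22, 28687743 to 28742422, minus strand, hg38), the kinase that ATM switches on, had 620 and 727 estimated counts in shCtl and 330 and 333 in shMAML2. Its RPKM was 12.4 and 14.3 in shCtl and 5.39 and 6.0 in shMAML2, so that the higher shMAML2 library still lay far below the lower control library. Its log2 fold change was -1.16 (95% interval -1.39 to -0.94, SE 0.104, edgeR adjusted p = 2.79e-07). The 2-fold call of CHEK2 held in all 11 alternative fits. The annotation lists 7 pseudogenes under its symbol, and 6.52% of its exonic bases overlap HSCB on the other strand (log2 fold change -0.37). Some of its reads may thus be uncertain, since the pseudogenes resemble it in sequence and the libraries carry no strand.

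ATM itself (chromosome 11, 108223044 to 108369102, plus strand), which answers broken ends, moved the other way. Its RPKM was 7.59 and 7.74 in shCtl and 9.17 and 8.1 in shMAML2, higher in both shMAML2 libraries but by little, with a log2 fold change of 0.24 (SE 0.0548, edgeR adjusted p = 0.00144). On the RPKM scale with limma, ATM did not pass, with an adjusted p of 0.0951 in limma. Without shMAML2 replicate 1 its log2 fold change was 0.15. ATR, the kinase of stalled forks, stood at an RPKM of 5.16 and 4.55 in shCtl and 4.75 and 4.24 in shMAML2, and the groups overlapped. Its log2 fold change was -0.04 (95% interval -0.22 to 0.13, edgeR adjusted p = 0.636) and turned to 0.05 without shCtl replicate 1 and 0.03 without shMAML2 replicate 2. CHEK1, the kinase below ATR, stood at an RPKM of 4.6 and 4.2 in shCtl and 3.63 and 3.71 in shMAML2, lower in both shMAML2 libraries. Its log2 fold change of -0.19 (95% interval -0.40 to 0.01, edgeR adjusted p = 0.0777) did not pass, and it was -0.26 and passed (edgeR adjusted p = 0.0409) without shCtl replicate 2. CHEK1 also passed with total counts (edgeR adjusted p = 0.0418) and with limma on both RPKM scales (adjusted p = 0.0415 and 0.042). ATRIP, which brings ATR to single-stranded DNA, had the highest value of the group, 0.28, with the widest interval (-0.08 to 0.64, edgeR adjusted p = 0.149). Its RPKM was 1.37 and 1.31 in shCtl and 1.74 and 1.36 in shMAML2, and a single library, shMAML2 replicate 1, stood apart. ATRIP shares 26.7% of its exonic bases with TREX1. TOPBP1, which activates ATR, had a log2 fold change of 0.11 (edgeR adjusted p = 0.0995).

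The chromatin mediators TP53BP1 and MDC1, which gather at marked chromatin beside a break, moved in opposite directions. TP53BP1 (chromosome 15, 43403061 to 43510728, minus strand), which shields ends from resection and favors end joining, had 2931 and 2734 estimated counts in shCtl and 5903 and 5142 in shMAML2. Its RPKM rose from 11.1 ± 0.678 in shCtl to 18.7 ± 0.512 in shMAML2 (SD, n = 2 each), with a log2 fold change of 0.82 (SE 0.0495, edgeR adjusted p = 4.6e-09). The groups lay far apart, and the value is the highest of the 42. Its exons share 28.8% of their bases with TUBGCP4 on the other strand, a gene that fell with a log2 fold change of -0.91. MDC1, the scaffold that reads phosphorylated histone H2AX, stood at an RPKM of 10.6 and 11.9 in shCtl and 8.52 and 8.77 in shMAML2. MDC1 fell, with a log2 fold change of -0.32 (SE 0.0604, edgeR adjusted p = 0.000354).

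In the MRE11-RAD50-NBN complex, MRE11 and RAD50 fell and NBN did not pass. MRE11 (chromosome 11, 94415570 to 94493885, minus strand), the nuclease, stood at an RPKM of 5.25 and 4.81 in shCtl and 3.44 and 3.68 in shMAML2, with a log2 fold change of -0.43 (SE 0.0813, edgeR adjusted p = 0.000297). RAD50, the tether that holds the ends, had 1643 and 1722 estimated counts in shCtl and 1396 and 967 in shMAML2. Its shMAML2 libraries lay apart, at an RPKM of 5.89 and 4.51, and its log2 fold change of -0.66 (SE 0.0907, edgeR adjusted p = 1.89e-05) was -0.86 without shMAML2 replicate 1 and -0.49 without shMAML2 replicate 2. An annotated read-through gene covers 76.9% of its exonic bases. NBN, the regulatory subunit, stood at an RPKM of 15.1 and 14.4 in shCtl and 14.2 and 13.9 in shMAML2, with a log2 fold change of -0.0030 (95% interval -0.12 to 0.11, edgeR adjusted p = 0.963). The sign of NBN depends on the library left out, from -0.040 to 0.034. RBBP8, which starts resection, and EXO1, which extends it, had log2 fold changes of -0.16 (edgeR adjusted p = 0.0947) and -0.10 (edgeR adjusted p = 0.494). RBBP8 passed with limma on the RPKM scale, at an adjusted p of 0.0325.

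Of the 4 genes of the BRCA complexes, 3 fell (75%, against 36.4% of all genes tested) and PALB2 did not pass. BRCA2 (chromosome 13, 32315086 to 32400268, plus strand), which loads the recombinase onto resected DNA, had 392 and 381 estimated counts in shCtl and 247 and 200 in shMAML2. Its RPKM went from 1.44 ± 0.0456 to 0.717 ± 0.0566 (SD, n = 2 each), with no overlap between the groups, and its log2 fold change was -0.93 (95% interval -1.19 to -0.67, edgeR adjusted p = 1e-05). BRCA2 is just short of the 2-fold limit, and without shMAML2 replicate 1 it was past it at -1.01. BARD1, the partner without which the BRCA1 ligase is unstable, stood at an RPKM of 3.36 and 2.99 in shCtl and 1.98 and 1.89 in shMAML2 and fell with a log2 fold change of -0.65 (SE 0.113, edgeR adjusted p = 0.000162). BRCA1 (chromosome 17, 43044295 to 43170245, minus strand) stood at an RPKM of 2.52 and 2.67 in shCtl and 1.97 and 2.15 in shMAML2. It was lower in both shMAML2 libraries, and its log2 fold change of -0.27 (95% interval -0.49 to -0.05, edgeR adjusted p = 0.0277) passed narrowly. The call of BRCA1 was lost with DESeq2 (adjusted p = 0.111), without shCtl replicate 2 (edgeR adjusted p = 0.111) and without shMAML2 replicate 1 (edgeR adjusted p = 0.163). PALB2 (chromosome 16, 23603160 to 23641321, minus strand), the bridge between BRCA1 and BRCA2, stood at an RPKM of 2.72 and 2.86 in shCtl and 2.95 and 3.2 in shMAML2. Both shMAML2 libraries were above both controls, yet the log2 fold change of 0.21 (95% interval -0.05 to 0.47, edgeR adjusted p = 0.135) did not pass.

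Among the 6 strand exchange paralogs and translocases, only the translocases RAD54L and RAD54B fell (33.3%, against 36.4% of all genes tested). RAD54L (chromosome 1, 46246461 to 46278480, plus strand), which remodels the recombinase filament on the donor duplex, stood at an RPKM of 5.69 and 4.52 in shCtl and 2.82 and 2.96 in shMAML2, with a log2 fold change of -0.75 (SE 0.134, edgeR adjusted p = 0.000195). The control libraries of RAD54L were spread, but neither reached down to a shMAML2 library. Its neighbour LRRC41, over 19.9% of its exonic bases, also fell (log2 fold change -0.59). RAD54B, its relative, stood at an RPKM of 2.82 and 2.79 in shCtl and 1.6 and 1.81 in shMAML2 and had a log2 fold change of -0.65 (edgeR adjusted p = 4.55e-05), with 66% of its exonic bases shared with FSBP. The 4 paralogs RAD51C, RAD51D, XRCC2 and XRCC3, which stabilize the filament, ran from -0.27 to 0.19, and none passed. XRCC2 turned to 0.02 without shCtl replicate 1 and 0.07 without shMAML2 replicate 2. RAD51C came nearest (edgeR adjusted p = 0.0652), and passed without shCtl replicate 1 (edgeR adjusted p = 0.0132) and without shMAML2 replicate 2 (edgeR adjusted p = 0.0258). It also passed in edgeR with total counts (adjusted p = 0.0426), with no filter (adjusted p = 0.0172) and with a replicate block (adjusted p = 0.0376). RAD51D, the highest of the group, stood at an RPKM of 1.12 and 1.15 in shCtl and 1.28 and 1.2 in shMAML2, with an interval of -0.06 to 0.44 around its log2 fold change (edgeR adjusted p = 0.15). XRCC3 shares 76.7% of its exonic bases with KLC1, a gene on the other strand that rose. The libraries carry no strand, and the effect of this overlap on the counts was not tested.

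The 7 genes of the Fanconi core complex split into 3 that fell (42.9%, against 36.4% of all genes tested), 1 that rose (14.3%, against 36.3%) and 3 that did not pass. FANCE (chromosome 6, 35452338 to 35467104, plus strand), the subunit that contacts FANCD2, had 274 and 272 estimated counts in shCtl and 160 and 155 in shMAML2, and its lower shMAML2 library held the lowest count of the 42 genes. Its RPKM was 4.54 and 4.43 in shCtl and 2.17 and 2.32 in shMAML2, with a log2 fold change of -0.93 (95% interval -1.24 to -0.62, edgeR adjusted p = 5.27e-05). The structural subunit FANCG had a log2 fold change of -0.63 (edgeR adjusted p = 1.09e-05), and FANCM, the translocase that anchors the complex to DNA, -0.34 (edgeR adjusted p = 0.0228). The call of FANCM was lost with DESeq2 (adjusted p = 0.0865), with limma on log2(RPKM + 0.1) (adjusted p = 0.0502), without shCtl replicate 1 (edgeR adjusted p = 0.161) and without shMAML2 replicate 2 (edgeR adjusted p = 0.122). FANCL (chromosome 2, 58159243 to 58241410, minus strand), the ubiquitin ligase of the complex, rose. Its RPKM was 5.93 and 6.07 in shCtl and 8.08 and 8.45 in shMAML2, with no overlap, and its log2 fold change was 0.53 (SE 0.115, edgeR adjusted p = 0.000951). VRK2, which touches 1.51% of the exonic bases of FANCL on the other strand, fell with a log2 fold change of -0.73. FANCA, FANCC and FANCF lay between -0.08 and 0.06, and FANCC turned to 0.09 without shCtl replicate 1.

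Below the core complex, FANCD2 fell and its partner FANCI did not pass. FANCD2 (chromosome 3, 10026370 to 10101932, plus strand), which clamps onto crosslinked DNA once it carries ubiquitin, stood at an RPKM of 5.2 and 5.17 in shCtl and 3.59 and 3.4 in shMAML2. The replicates lay close together within each group, and the log2 fold change was -0.50 (SE 0.0805, edgeR adjusted p = 7.58e-05). FANCI, the partner in the clamp, stood at an RPKM of 8.22 and 7.51 in shCtl and 6.53 and 6.85 in shMAML2, with a log2 fold change of -0.17 (95% interval -0.33 to -0.01, edgeR adjusted p = 0.0593). It was lower in both libraries, and it passed without shCtl replicate 2 (edgeR adjusted p = 0.0207), with total counts, with no filter and with limma on both RPKM scales (adjusted p from 0.0269 to 0.031 in the latter edgeR and limma fits). BRIP1, the helicase that binds BRCA1, had a log2 fold change of 0.18 (95% interval -0.07 to 0.44, edgeR adjusted p = 0.184).

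The largest fall among the 42 genes was in the group of helicases and junction nucleases, in which 2 of 5 genes fell (40%, against 36.4% of all genes tested). EME1 (chromosome 17, 50373220 to 50381483, plus strand), the noncatalytic subunit of the nuclease that cuts joined DNA at stalled forks and in mitosis, had 578 and 609 estimated counts in shCtl and 264 and 230 in shMAML2. Its RPKM went from 10.7 ± 0.276 to 3.83 ± 0.107 (SD, n = 2 each), which left 35.9% of the control level. The log2 fold change was -1.41 (95% interval -1.62 to -1.19, SE 0.10, edgeR adjusted p = 2.66e-08), and this call also held in all 11 alternative fits. Its exons share 16.4% of their bases with LRRC59 on the other strand, which fell by less (log2 fold change -0.54). MUS81, the catalytic subunit, stood at an RPKM of 14 and 14.4 in shCtl and 12 and 11.8 in shMAML2. Its log2 fold change of -0.18 (95% interval -0.33 to -0.04, edgeR adjusted p = 0.027) passed, but not with DESeq2 (adjusted p = 0.12) nor with any 1 of the 4 libraries left out (edgeR adjusted p from 0.0581 to 0.115). SLX4, the scaffold of the junction nucleases, had a log2 fold change of 0.09 (edgeR adjusted p = 0.453). The helicase BLM, which dissolves double junctions, was the highest of the group at 0.19 (95% interval -0.12 to 0.51, edgeR adjusted p = 0.241), and the helicase WRN lay at -0.0087 and turned to 0.03 without shMAML2 replicate 2.

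Both poly(ADP-ribose) polymerases fell by nearly the same amount. PARP1 (chromosome 1, 226360210 to 226408154, minus strand), which marks nicks and breaks, stood at an RPKM of 42.6 and 43.3 in shCtl and 24.4 and 23.7 in shMAML2. PARP2, its smaller relative, stood at an RPKM of 19 and 20.04 in shCtl and 10.3 and 11.4 in shMAML2. Neither gene's groups overlapped, and each shMAML2 library lay far below both controls. The log2 fold changes were -0.77 (SE 0.0434, edgeR adjusted p = 2.23e-09) and -0.79 (SE 0.083, edgeR adjusted p = 1.38e-06). The mismatch repair genes MSH6, which reads mispaired bases, and PMS2, the nicking subunit, had log2 fold changes of 0.05 (95% interval -0.05 to 0.14, edgeR adjusted p = 0.388) and -0.04 (95% interval -0.21 to 0.13, edgeR adjusted p = 0.636). MSH6 lay at -0.021 on the log2(RPKM + 0.1) scale. It shares 22.7% of its exonic bases with FBXO11 on the other strand, which rose (log2 fold change 0.32). PMS2 has 15 annotated pseudogenes under its symbol.

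Proteins of these pathways work in complexes, and so the RPKM of a gene was also divided by that of its partner in each library, a value that library scaling does not touch. Of 19 partner ratios, 15 did not overlap between the groups. Among single genes tested, 85.7% did not overlap in library-scaled counts, which is an unlike measure, and no share for ratios of other gene pairs is given. The number without overlap is therefore no result about the pairs. With 2 libraries against 2, the smallest p an exact permutation test can give is 0.333 (0.422 after adjustment over the 19), so that none could pass. The mean log2 ratio differed most in CHEK2 over ATM, by -1.39, where the ratio was 1.63 and 1.84 in shCtl and 0.587 and 0.74 in shMAML2. EME1 over MUS81 was 0.749 and 0.757 in shCtl and 0.325 and 0.318 in shMAML2, so that EME1 lay closer to the level of its partner in shCtl. PALB2 over BRCA2 went the other way, with 1.85 and 2.03 in shCtl and 3.9 and 4.73 in shMAML2. MDC1 over TP53BP1 was near 1 in shCtl, with 0.918 and 1.12 in shCtl and 0.446 and 0.477 in shMAML2. Smaller gaps without overlap were seen in NBN over MRE11 (mean 2.93 to 3.95), FANCL over FANCA (mean 1.17 to 1.62), FANCI over FANCD2 (mean 1.52 to 1.92) and BARD1 over BRCA1 (mean 1.23 to 0.942). The ratios of PARP2 to PARP1, RAD54B to RAD54L, RAD50 to MRE11 and XRCC3 to RAD51C overlapped. PARP2 over PARP1 was 0.448 and 0.462 in shCtl and 0.42 and 0.48 in shMAML2.

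**Figure D3:**
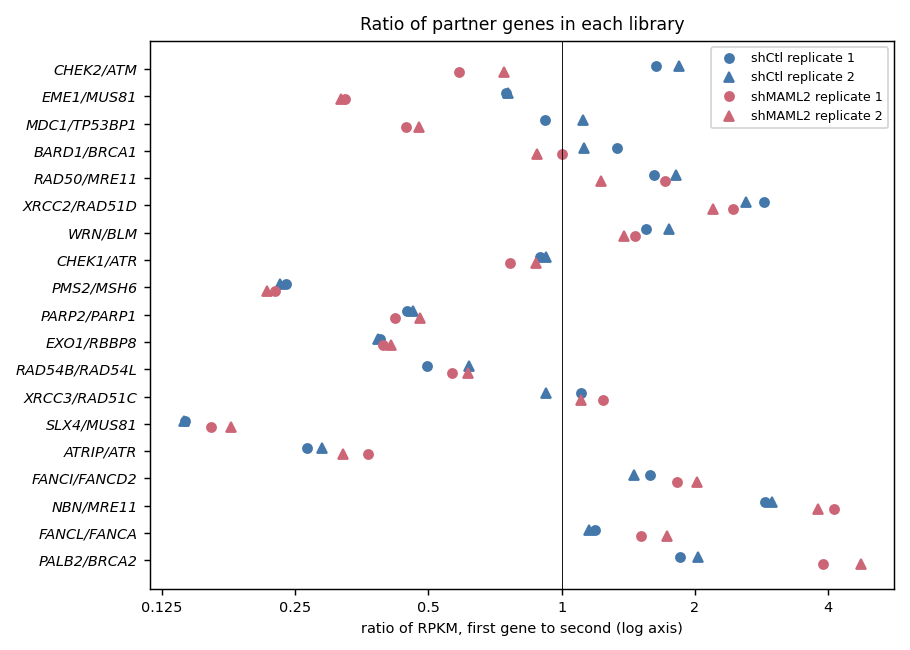
Ratio of the RPKM of partner genes (x axis, log scale) in each of the 4 libraries, 1 point per library and 1 line of points per pair. Points of shCtl and shMAML2 are far apart for CHEK2/ATM, EME1/MUS81, MDC1/TP53BP1 and PALB2/BRCA2 and mix for PARP2/PARP1.

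Other genes of the same and neighbouring pathways were read from lists written by hand. Of 91 such genes tested, 36 fell (39.6%, against 36.4% of all genes tested) and 21 rose (23.1%, against 36.3%). The share that fell is close to that of all genes. The median log2 fold change was -0.13, the same to the digits given as that of the 42 genes. Under limma on the RPKM scale 13 rose, and with a library left out between 16 and 18. Among 38 other recombination and Fanconi genes, 15 fell (39.5%) and 11 rose (28.9%). The lowest was BABAM2, a subunit that stabilizes the BRCA1-A complex, at an RPKM of 55.3 and 53 in shCtl and 17.4 and 17.7 in shMAML2, a log2 fold change of -1.56 (edgeR adjusted p = 8.42e-12). The highest was HELQ, a helicase of fork repair, at 0.60 (edgeR adjusted p = 0.0149). Its levels were low, at an RPKM of 0.948 and 1.03 in shCtl and 1.67 and 1.17 in shMAML2, and shMAML2 replicate 1 stood apart. Of 21 other genes listed under checkpoint and break signalling, 3 fell (14.3%) and 5 rose (23.8%). The 5 include TP53BP2 (log2 fold change 0.31), which is not a break signalling gene. It also counts among the 21 risen genes of the 91. CDC25C, the phosphatase that checkpoint kinases hold back before mitosis, was the lowest at -1.10 (edgeR adjusted p = 3.07e-06), and CLSPN, the mediator of CHEK1 activation, the highest at 0.68 (edgeR adjusted p = 7.98e-05).

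End joining, the route that competes with recombination, was lower in 7 of 9 genes (77.8%) and higher in 1 (11.1%). Of all genes tested, 36.4% fell and 36.3% rose. The polymerase POLM was the lowest at -0.65 (edgeR adjusted p = 7.58e-07), and the ligase LIG4 was the single gene that rose, at 0.59 (edgeR adjusted p = 0.00155). A list of 9 other mismatch repair genes includes the replication factors LIG1, RFC1 and the POLD subunits. In it 5 fell (55.6%), MSH3 among them, and 1 rose (11.1%). PMS1 (0.09), MLH3 (-0.13) and POLD3 (0.21) did not pass. The replicative polymerase subunits POLD2 and POLD4 marked the ends of that list, with log2 fold changes of -1.05 (edgeR adjusted p = 2.09e-10) and 0.36 (edgeR adjusted p = 0.00144). Among 14 genes of base excision and PARP partners, 6 fell (42.9%) and 3 rose (21.4%). LIG3, the ligase that works beside PARP1, was the lowest, with RPKM values of 3.69 and 3.81 in shCtl and 1.43 and 1.7 in shMAML2 and a log2 fold change of -1.20 (edgeR adjusted p = 1.23e-07). The flap nuclease FEN1 was the highest at 0.60 (edgeR adjusted p = 8.57e-06). Across the 91 genes of these lists, BABAM2, LIG3, CDC25C and POLD2 fell 2-fold or more (4.40%, against 8.93% of all genes tested). None rose as far, against 9.24% of all genes tested.

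Genes that follow the cell cycle were read beside the repair genes. All 20 genes of a G2/M list fell, against 36.4% of all genes tested. Of the 20, 11 fell 2-fold or more (55%, against 8.93%). The median log2 fold change of the list was -1.02. The range ran from -1.60 for BUB1 (edgeR adjusted p = 3.17e-12) to -0.29 for KIF11 (edgeR adjusted p = 0.000536), and the summed RPKM of the list was 805 to 807 in shCtl and 380 to 384 in shMAML2. An S phase list of 21 genes was mixed, with a median of -0.22. In it 9 fell (42.9%, against 36.4% of all genes tested) and 5 rose (23.8%, against 36.3%). Its lowest gene was TYMS at -1.04 (edgeR adjusted p = 2.67e-10), and RRM2 also fell 2-fold (-1.02). Its highest, among the 5 that rose, was CCNE2 at 2.77. CCNE2 stood at an RPKM of 0.148 and 0.282 in shCtl and 1.36 and 1.39 in shMAML2. It thus passed the limit on low values only through shMAML2, and its fold change rests on a control level near 0. The summed S phase RPKM was 465 to 468 in shCtl and 360 to 367 in shMAML2. The part of the cell cycle in the values of the repair genes was not tested.

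**Figure D4:**
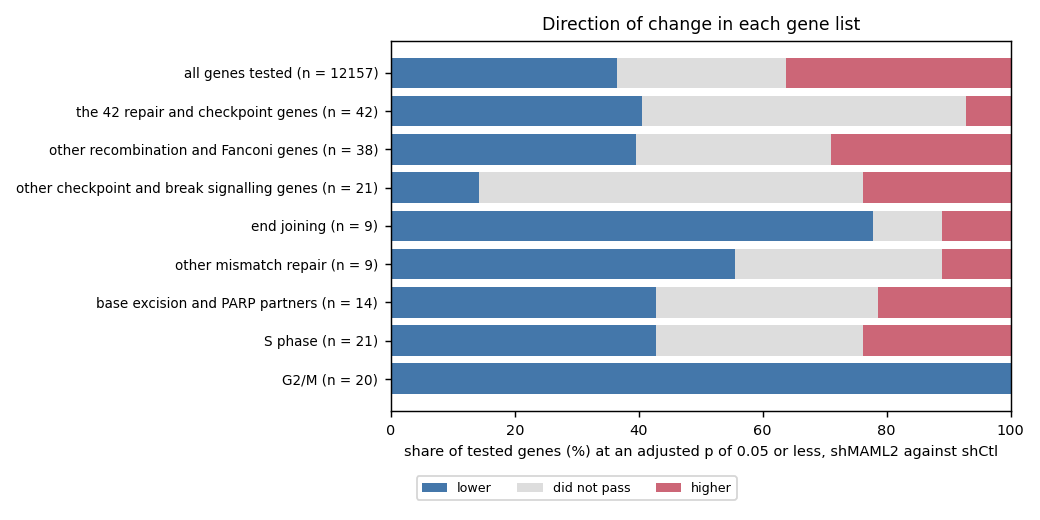
Share of the tested genes of each list (x axis, percent) that fell, did not pass or rose at an adjusted p of 0.05 or less in shMAML2 against shCtl, with the number of tested genes in brackets. Of the 42 genes 40.5% fell and 7.14% rose, against 36.4% and 36.3% of all genes tested, and the G2/M bar is filled by genes that fell.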

How the data were processed

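RNA-seq libraries of ES-2 cells (2 shCtl, 2 shMAML2) were read from deposited tables. Per the labels and methods, the authors mapped read pairs (150 bases each) to hg38 in HISAT2 2.0.4, dropped ambiguous reads and those with a mapping quality below 10, and summed RefSeq genes in Partek 7.18. The deposited estimated counts are raw and mostly not whole. The deposited RPKM values divide them by transcript length and library size, and their log2 fold changes lie a median of 0.067 lower than those with TMM factors. The methods give shorter times of infection and transduction than the labels, whose 8 h and 96 h are used here.

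Rounded counts were tested with edgeR 4.0.16 in R 4.3.3 (TMM factors, glmQLFit, glmQLFTest, no block, Benjamini-Hochberg adjustment). The 12157 genes tested had an RPKM over 1 in 1 library or more, and calls at 2-fold also needed an adjusted p of 0.05 or less. The biological coefficient of variation was 0.0485. Replicates differed by more than sampling noise (chi-square per degree of freedom 3.46 in shCtl and 3.98 in shMAML2), and each SD rests on a pair of libraries. Scripts were tested on simulated data. Positions come from GENCODE v44. Exons of 32 of the 42 genes overlap another annotated gene, 22 of them a protein-coding gene, and 7 genes have pseudogenes under their symbol. Reads of overlapping exons may be shared between genes, and the libraries carry no strand. Reads that also match a similar pseudogene may be shared with it or have been dropped as ambiguous.

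The members and all gene, partner and marker lists were chosen with earlier results of these data known. The genes named are called members, the lowest and highest of each role group, BRCA1, BRCA2, PALB2, FANCD2, ATM, ATR, CHEK1, CHEK2, MRE11 and PARP1, and the lowest, highest and called genes of other lists. Other members appear where partners are compared, a call changed, exons are shared or a promoter is described. Further genes of other lists appear where the make-up of a list is described. Alternatives were total counts, DESeq2 1.42.0, no filter, an RPKM above 1 in all 4 libraries, limma 3.58.1 on log2(RPKM + 0.1) and log2(RPKM + 1) of the deposited values, a fold limit of 1.5, replicate number as a block, and leaving out each library. Some listed marker genes are not reported here.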

Additional observations from a re-analysis of the deposited data

How the results depend on the processing

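With a fold change limit of 1.5 in place of 2, 11 of the 42 genes were lower and 1 higher. Across the other alternatives, 14 (DESeq2) to 20 (total counts, and limma on log2(RPKM + 1)) genes were lower at an adjusted p of 0.05 or less and 2 to 3 higher. With a library left out, 15 to 17 were lower and 3 higher, 2 to 3 were lower by 2-fold and 0 higher, and the median log2 fold change ran from -0.16 to -0.081. These medians were added after the values had been seen. BRCA2 joined EME1 and CHEK2 without shMAML2 replicate 1 (log2 fold change -1.01). BRCA2 could not be included where an RPKM above 1 was asked of all 4 libraries. Of the 91 other repair genes, 13 were higher with limma on log2(RPKM + 0.1) and 13 on log2(RPKM + 1), where 21 were higher in edgeR, and 30 to 36 were lower and 16 to 18 higher with a library left out.

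In 27 genes the sign and the side of the limit were the same in every alternative fit run for them (up to 11), 8 crossed the limit (ATM, BRCA1, CHEK1, FANCI, FANCM, MUS81, RAD51C, RBBP8) and 7 changed sign, none of which passed in the edgeR fit. With a library left out, XRCC2 ran from -0.16 to 0.069, FANCC from -0.23 to 0.095, NBN from -0.040 to 0.034, WRN from -0.048 to 0.030 and ATR from -0.14 to 0.051. NBN was 0.000266 with DESeq2. FANCA was -0.0028 and -0.0023, and MSH6 -0.021 and -0.020, with limma on log2(RPKM + 0.1) and log2(RPKM + 1). The cause was not tested.

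Libraries with the same replicate number did not deviate together (correlation of deviations -0.029, Spearman 0.020). With a replicate block, 18 genes were lower (RAD51C was added) and 3 higher, 2 and 0 of them by 2-fold, the median was -0.13, and 37 and 21 of the other repair genes were lower and higher.

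ATRIP, FANCE and BLM, with few counts, carry standard errors of 0.144 to 0.168, so that log2 changes of that size are not detectable in them. Exon overlaps and annotated read-through transcripts may limit EME1, CHEK2, RAD50, RAD54B, XRCC3, ATRIP and TP53BP1, and also RAD54L, FANCA and MSH6. The overlaps are those of GENCODE and the counts those of RefSeq genes, and the effect of the overlaps on the counts was not tested.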

Other observations

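The values here were chosen after they had been seen and carry no explanation. In the BRCA1-A complex, which binds ubiquitin chains at breaks, 4 accessory genes fell and BRCC3 rose. Of all genes tested, 36.4% fell and 36.3% rose. BABAM2 had a log2 fold change of -1.56, ABRAXAS1 of -0.63, UIMC1 of -0.62 and BABAM1 of -0.28, while BRCC3, the deubiquitinase of the complex, had 0.37 (edgeR adjusted p from 8.42e-12 for BABAM2 to 0.0234 for BRCC3). RPKM values were 55.3 and 53 in shCtl and 17.4 and 17.7 in shMAML2 for BABAM2 and 4.12 and 3.64 in shCtl and 5.29 and 4.25 in shMAML2 for BRCC3.

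The 3 subunits of RPA, the protein that coats single-stranded DNA before the recombinase, spread widely. RPA3 stood at an RPKM of 15.3 and 14.1 in shCtl and 7.7 and 8.21 in shMAML2 (edgeR adjusted p = 2.3e-06), RPA2 at an RPKM of 16.6 and 16.9 in shCtl and 16.5 and 17 in shMAML2 (edgeR adjusted p = 0.419) and RPA1 at an RPKM of 17 and 17.1 in shCtl and 21.2 and 22.5 in shMAML2 (edgeR adjusted p = 3.89e-06). The log2 fold changes were -0.82, 0.07 and 0.42, so that RPA3 fell, RPA1 rose and RPA2 did not pass.

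Among the partners that act below TP53BP1, which rose, MAD2L2 fell from 26.2 ± 1.31 to 12.8 ± 0.808 RPKM (SD, n = 2 each, log2 fold change -0.96, edgeR adjusted p = 3.07e-07). RIF1 had -0.22 (edgeR adjusted p = 0.04997), with groups that overlapped, and SHLD2 had -0.20 (edgeR adjusted p = 0.0534). PAXIP1, another partner, rose (0.38, edgeR adjusted p = 0.00095), and DCLRE1C had 0.11 (edgeR adjusted p = 0.28). SHLD1 and SHLD3 were under the limit on low values. The ubiquitin ligase RNF168 rose (0.34, edgeR adjusted p = 0.00277), and RNF8 had -0.21 (edgeR adjusted p = 0.0603).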
